A study of Mus musculus with 6 samples.

Results

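The 9 genes of MHC class II and the B cell lineage described here were followed through bulk RNA-seq of sorted naive CD4 T cells: H2-Aa, H2-Ab1, H2-Eb1, Cd74, Cd79a, Cd79b, Ms4a1, Ighm and Ebf1. They were chosen by name, as a reading of B cell RNA carried through the sort, and are 9 of the 46983 genes in the files. The cells came from lymph nodes of male mice, with a sort gate that includes TCRb+, CD4+, CD44- and DAPI- and names no B cell marker. The 2 control libraries (control 1 and 2) are Cmtr1 fl/fl without CD4cre, and the 4 libraries labelled Cmtr1 cKO (cKO 1 to 4) are Cmtr1 fl/fl with CD4cre, so the floxed alleles are common to both groups. CD4cre recombines floxed alleles in cells of the T lineage. Age, litter and whether each library is a separate mouse are not stated in the labels, so every p-value rests on library-to-library spread, which may be technical.

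MHC class II molecules are heterodimers that show peptides to CD4 T cells. They are made by B cells, dendritic cells and macrophages, under the coactivator CIITA, and resting mouse T cells make little or none. H2-Aa and H2-Ab1 encode the alpha and beta chains of the I-A molecule, H2-Eb1 encodes the beta chain of I-E, and Cd74 encodes the invariant chain that guides class II through the cell. Cd79a and Cd79b encode the signalling pair of the B cell receptor, Ms4a1 encodes the B cell surface protein CD20, Ighm encodes the heavy chain constant region of IgM, and Ebf1 encodes a transcription factor that sets the B lineage. The Ighm constant region can also be transcribed without a joined variable segment, as so-called sterile RNA, in cells that are not B cells.

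Cmtr1, the targeted gene, which encodes an mRNA cap methyltransferase, did not separate the groups by its gene-level count. It read 11.2 and 11.4 CPM in control 1 and 2, and 16.0, 19.8, 14.6 and 7.57 CPM in cKO 1 to 4 (log2 fold change 0.36 ± 0.31, SE, edgeR adjusted p = 0.461). Only cKO 4 was below the controls. The labels used here do not name the deleted exons, and a count over the whole gene cannot show their loss, so this value neither bears out the labels nor contradicts them. Control and cKO below mean the libraries so labelled, and every direction between them rests on those labels.

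The libraries held 9513874 (cKO 3) to 11949838 (control 1) reads counted on genes. Levels are given as CPM, which are counts per 1000000 scaled with TMM factors. The share of uniquely mapped reads on no annotated exon of the sense strand was 37.2% in control 1 and 33.96% in control 2. It was 38.02% to 52.3% in the cKO libraries. This share, called reads outside exons below, also holds reads that lie on an exon but on its opposite strand. In cKO 3, the sense strand held 5.57 times the reads of the opposite strand, against 18.7 to 22.7 times in the other libraries. Its highest count among members was 2512 reads (Ighm) and its lowest 14 (Ebf1). The identity of the cells was read from 20 T cell markers, whose summed level was 11003 and 11143 CPM in control 1 and 2 and 10337 to 11735 CPM in the cKO libraries. All 9 members passed the filter on low counts.

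Promoters of class II genes carry a Y box, bound by NF-Y at the letters CCAAT, and an X box, bound by RFX, whose core was searched as AGNAAC. B cell promoters often carry the octamer ATGCAAAT or sites for EBF, searched as CCCNNGGG. The RefSeq table on GRCm38.p6 held windows of 250 bases before to 50 after the start for 4 members, shown so that the promoters of 2 class II genes, which fell, can be set beside those of 2 B lineage genes, which did not pass the test. H2-Aa lies at chr17:34287774-34288073 (minus strand), H2-Eb1 at chr17:34305617-34305916 (plus strand) and Cd79a at chr7:24897247-24897546 (plus strand). Ebf1 has 2 entries, at chr11:44617850-44618149 and chr11:44619978-44620277 (plus strand). Capitals mark every match to the 4 motifs, on either strand.
H2-Aa: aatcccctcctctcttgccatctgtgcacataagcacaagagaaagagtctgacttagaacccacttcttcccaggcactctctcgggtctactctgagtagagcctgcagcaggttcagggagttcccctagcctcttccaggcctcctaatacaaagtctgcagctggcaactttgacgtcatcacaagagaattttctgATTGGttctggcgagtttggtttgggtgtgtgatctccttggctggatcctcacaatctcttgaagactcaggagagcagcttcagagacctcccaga
H2-Eb1: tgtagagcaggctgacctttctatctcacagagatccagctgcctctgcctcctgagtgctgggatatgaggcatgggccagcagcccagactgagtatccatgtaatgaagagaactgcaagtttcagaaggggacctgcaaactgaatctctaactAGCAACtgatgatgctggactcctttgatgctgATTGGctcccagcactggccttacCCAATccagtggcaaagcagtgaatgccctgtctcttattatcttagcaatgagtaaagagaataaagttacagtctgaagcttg
Cd79a: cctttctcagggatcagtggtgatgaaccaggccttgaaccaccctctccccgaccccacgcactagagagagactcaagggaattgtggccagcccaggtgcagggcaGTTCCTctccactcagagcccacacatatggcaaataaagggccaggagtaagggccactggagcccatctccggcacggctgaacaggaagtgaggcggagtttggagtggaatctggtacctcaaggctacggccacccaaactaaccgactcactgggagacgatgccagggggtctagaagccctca
Ebf1, first entry: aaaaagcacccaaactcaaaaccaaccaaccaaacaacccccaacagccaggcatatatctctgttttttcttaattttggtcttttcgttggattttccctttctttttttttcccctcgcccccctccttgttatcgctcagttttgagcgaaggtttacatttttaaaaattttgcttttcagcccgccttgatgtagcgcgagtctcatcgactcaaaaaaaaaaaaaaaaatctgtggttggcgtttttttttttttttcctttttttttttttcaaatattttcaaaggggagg
Ebf1, second entry: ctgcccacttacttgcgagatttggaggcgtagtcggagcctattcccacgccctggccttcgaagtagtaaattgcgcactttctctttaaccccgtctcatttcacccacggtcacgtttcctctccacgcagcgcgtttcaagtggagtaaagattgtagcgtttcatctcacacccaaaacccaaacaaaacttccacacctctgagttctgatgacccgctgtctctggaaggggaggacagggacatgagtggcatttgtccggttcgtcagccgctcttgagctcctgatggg

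Counted from the start site, H2-Aa had 1 match to CCAAT, on the opposite strand at -48 to -44. H2-Eb1 had CCAAT at -59 to -55 (opposite strand) and at -35 to -31, and AGNAAC at -92 to -87. Cd79a had AGNAAC at -141 to -136 on the opposite strand. The 2 windows of Ebf1 held no match. No 2 of these matches overlapped. Of 32851 such windows in the table, 37.4% held CCAAT, 48.1% AGNAAC, 1.74% ATGCAAAT and 13.7% CCCNNGGG, so the first 2 motifs are common in promoters of any gene. These exact patterns miss sites that are spelled otherwise. A window without a match may therefore still hold such a site, and a match does not show a bound site.

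The 4 class II genes were all lower in the cKO libraries, each at between 0.517 and 0.597 of its control mean. H2-Aa (chromosome 17, 34282744 to 34287823, GRCm38) stood at 21.0 and 24.2 CPM in control 1 and 2 and at 11.5, 15.0, 9.42 and 13.2 CPM in cKO 1 to 4. Its log2 fold change was -0.87 ± 0.16 (SE), with adjusted p = 0.00817 by the quasi-likelihood test of edgeR, adjusted over all genes tested by the Benjamini-Hochberg method, as is every adjusted p below. H2-Ab1 (chromosome 17, 34257689 to 34269419) stood at 17.5 and 18.2 CPM in control 1 and 2 and at 8.42, 12.5, 7.41 and 8.52 CPM in cKO 1 to 4. For both chains of I-A, cKO 2 was the highest cKO library and cKO 3 the lowest, and no cKO library reached a control. H2-Ab1 fell by 0.95 ± 0.18 (SE) on the log2 scale (edgeR adjusted p = 0.00978).

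H2-Eb1 (chromosome 17, 34305867 to 34316674) stood at 14.8 and 15.5 CPM in control 1 and 2 and at 8.70, 10.3, 5.40 and 7.83 CPM in cKO 1 to 4. Its log2 fold change was -0.90 ± 0.20 (SE, edgeR adjusted p = 0.0176). Cd74 (chromosome 18, 60803848 to 60812652), the most abundant of the 4 per kb of exon, stood at 42.8 and 50.7 CPM in control 1 and 2 and at 27.2, 37.5, 23.7 and 23.3 CPM in cKO 1 to 4. The groups did not overlap for either gene, and cKO 2 was again nearest to the controls. Cd74 fell by 0.74 ± 0.17 (SE) on the log2 scale (edgeR adjusted p = 0.0231). In these bulk samples, fewer class II positive cells and less class II RNA per cell cannot be told apart.

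**Figure D1:**
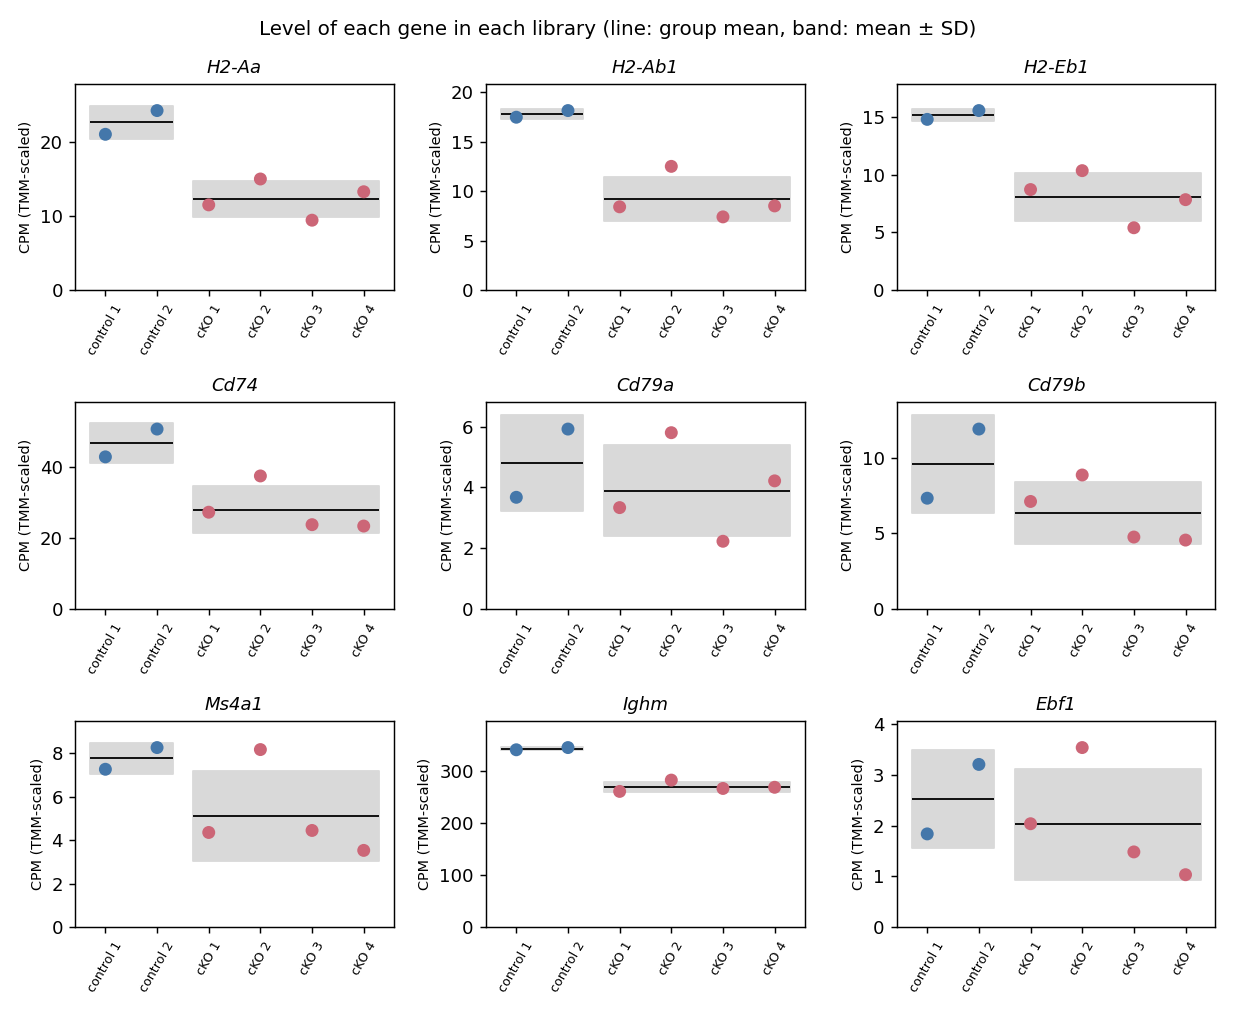
Level of each of the 9 genes (vertical axis, TMM-scaled CPM from 0) in the 2 control (blue) and 4 cKO (red) libraries, with the group mean as a line and mean ± SD as a band. The cKO points lie below both controls for the 4 class II genes and for Ighm, and reach into the control range for Cd79a, Cd79b, Ms4a1 and Ebf1.

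The B cell receptor pair and CD20 did not pass the test. Cd79a (chromosome 7, 24897381 to 24902197) stood at 3.67 and 5.92 CPM in control 1 and 2 and at 3.33, 5.80, 2.22 and 4.21 CPM in cKO 1 to 4. Cd79b (chromosome 11, 106311341 to 106314762) stood at 7.34 and 11.9 CPM in control 1 and 2 and at 7.13, 8.89, 4.76 and 4.56 CPM in cKO 1 to 4. Ms4a1 (chromosome 19, 11249675 to 11266241) stood at 7.26 and 8.26 CPM in control 1 and 2 and at 4.35, 8.16, 4.44 and 3.53 CPM in cKO 1 to 4. In all 3 genes control 2 was the highest library, and cKO 2 was above control 1.

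The log2 fold changes were -0.28 ± 0.33 (SE) for Cd79a, -0.60 ± 0.28 for Cd79b and -0.59 ± 0.28 for Ms4a1. EdgeR gave adjusted p = 0.597, 0.176 and 0.179. Their standard errors exceed those of the 4 class II genes, and missing the threshold does not show that they stayed at the control level. Without cKO 2 the fold change of Ms4a1 was -0.92, and it was called lower (edgeR adjusted p = 0.0334). Without control 2 Cd79a had 0.11 and Cd79b -0.20 (edgeR adjusted p = 0.92 and 0.795).

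Ebf1 (chromosome 11, 44617317 to 45008091) was at the edge of detection, with 12 to 39 reads a library. It stood at 1.84 and 3.20 CPM in control 1 and 2 and at 2.04, 3.54, 1.48 and 1.03 CPM in cKO 1 to 4. The groups overlapped, with the highest value of all in cKO 2. The log2 fold change was -0.30 ± 0.44 (SE, edgeR adjusted p = 0.671), and 0.15 without control 2 (edgeR adjusted p = 0.916).

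Ighm was by far the most abundant member. It stood at 340 and 344 CPM in control 1 and 2 and at 260, 282, 266 and 268 CPM in cKO 1 to 4 (chromosome 12, 113418558 to 113422730). All 4 cKO libraries were below both controls and the spread within each group was small, at 342 ± 3 CPM (SD, n = 2) against 269 ± 9 (SD, n = 4). The log2 fold change was -0.35 ± 0.07 (SE, edgeR adjusted p = 0.0105). Per kb of exon Ighm had a control mean of 181 CPM, against 27.9 for Cd74, 7.797 for H2-Eb1, 6.94 for H2-Ab1, 6.74 for Cd79b, 5.95 for H2-Aa, 3.29 for Cd79a, 1.25 for Ms4a1 and 0.258 for Ebf1. The 3 class II chains and Cd79b do not differ in this order beyond the spread of Cd79b between the controls.

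Of the 9 members, 5 were called lower and 0 higher, where 6.77% of the 12748 genes tested were called lower, 4.66% higher and 11.4% in either direction. All 9 log2 fold changes were negative, with a median of -0.60, against a median of 0.00 over all genes tested. In the same 5 genes every cKO library was below both controls, which held for 20.8% of all genes tested. Scaled by library totals, without TMM factors, 3 members were called. That scaling raised the median of all genes to 0.13 and turned the calls over all genes from 863 lower and 594 higher to 418 and 1441. Cd74 then had -0.61 and Ighm -0.22 (edgeR adjusted p = 0.0647 and 0.0682), while the 3 class II chains stayed called, at -0.74 to -0.82.

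The calls rest on having both controls. Without control 1, or without control 2, 0 of 9 members were called, where 255 and 193 of all genes were called, and the lone control is then assumed to vary like the cKO libraries. The fold changes of the 4 class II genes were then -0.96 to -0.85 without control 1 and -0.91 to -0.60 without control 2. Without cKO 3 the calls of Cd74 and Ighm ended (edgeR adjusted p = 0.0599 and 0.0533), which left 3 members. Without cKO 1 the call of Cd74 ended (edgeR adjusted p = 0.0667), which left 4.

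**Figure D2:**
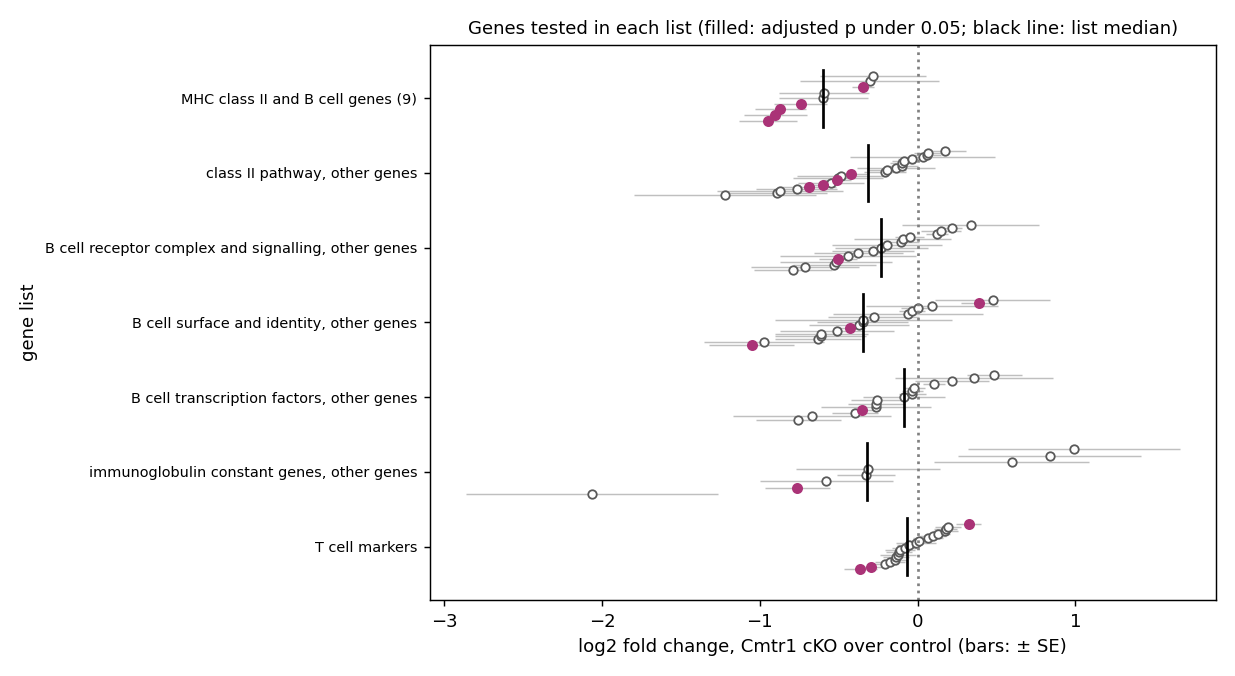
Log2 fold change, cKO over control, of each tested gene (horizontal axis, bars are ± SE) by gene list, with called genes filled and list medians as black lines. The 9 members all lie left of 0 with a median of -0.60, and the T cell markers lie around a median of -0.07.

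The ratio of class II to B cell RNA within a library does not depend on scaling. Of the reads on the 4 class II genes plus Cd79a, Cd79b and Ms4a1, the class II genes held 84.0% (95% Wilson interval 81.9% to 85.9%) in control 1 and 80.6% (78.4% to 82.6%) in control 2. In cKO 1 to 4 they held 79.0% (76.0% to 81.8%), 76.7% (74.1% to 79.1%), 80.1% (76.5% to 83.2%) and 81.1% (78.2% to 83.8%). The share in control 2 lay within the cKO range. Only control 1 lay above every cKO library, and its interval overlaps that of cKO 3 and cKO 4. Whether the class II genes fell more than Cd79a, Cd79b and Ms4a1 was not tested.

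H2-Aa held 54.5% to 60.9% of H2-Aa plus H2-Ab1 reads over the 6 libraries, and Cd74 held 44.1% to 51.6% of class II reads, each with the controls inside that range. Cd79b held 66.7% and 66.8% of Cd79a plus Cd79b reads in the controls, and 68.1%, 60.5%, 68.2% and 52.0% in cKO 1 to 4. In cKO 4, with 102 such reads, its interval (42.4% to 61.4%) lies below both control shares. That interval overlaps those of control 1 (58.05% to 74.3%) and control 2 (59.76% to 73.24%). Against the B cell members, there were 12.3 (cKO 2) to 23.3 (cKO 3) Ighm reads per read of Cd79a, Cd79b and Ms4a1, with 18.6 and 13.2 in the controls.

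**Figure D3:**
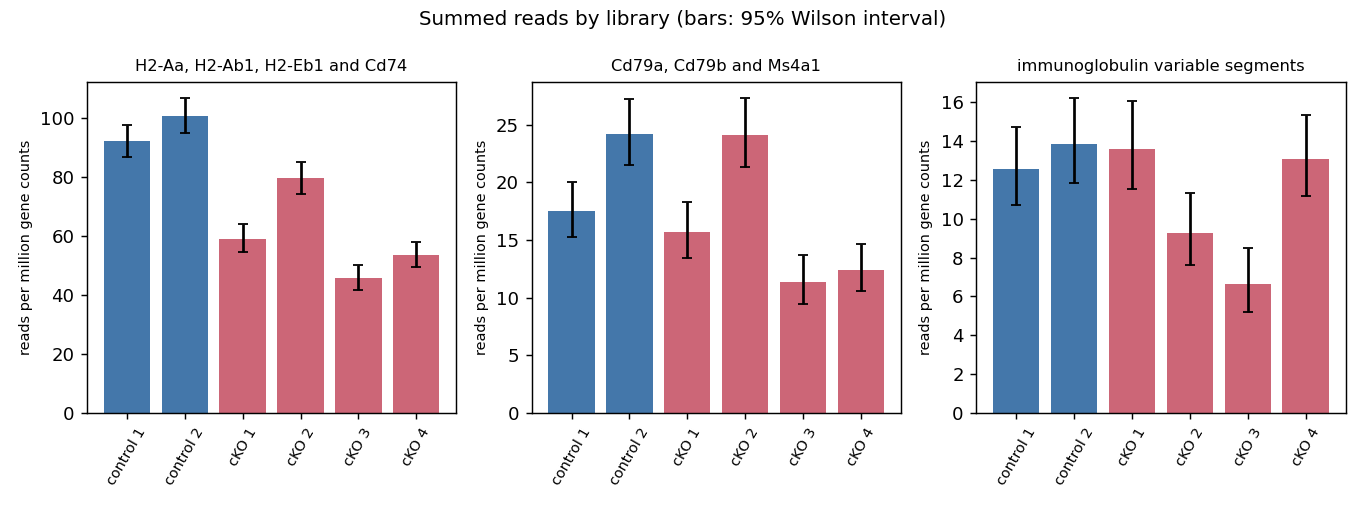
Summed reads per 1000000 gene counts (vertical axis from 0, bars with 95% Wilson intervals, which cover counting error only) of the 4 class II genes, of Cd79a, Cd79b and Ms4a1, and of immunoglobulin variable segments in each library. The class II sum is 92.0 and 101 in the controls and 45.6 to 79.5 in the cKO libraries, while the other 2 sums overlap between groups.

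Across the 6 libraries the class II genes varied together. Pearson correlations of log2 CPM were 0.921 to 0.973 among the 4, 0.653 to 0.936 between them and Cd79a, Cd79b or Ms4a1, and 0.885 to 0.956 between them and Ighm. Those of Ighm with Cd79a, Cd79b and Ms4a1 were 0.469 to 0.764. These values describe 6 libraries that share the difference between groups. Genes most like the summed level of the 9 members were Ethe1, Smad2, Lpcat1, Pigk, Ubqln4, Cd2ap, 2810454H06Rik, 4933429H19Rik, Dennd5a and Elmsan1 (r = 0.97 to 0.99), of which 0 are in any list here. Ighm held 71.4% to 81.9% of that sum. Against the 8 members without Ighm, a profile added after the values were seen, the 10 nearest were Nup188, Ighd, Gm17259, Ciita, 4933429H19Rik, Gm20634, Fcmr, Cd180, Rida and mt-Te (r = 0.97 to 0.98). Of these, 4 are in the lists of class II, B cell and immunoglobulin genes: Ighd, Ciita, the Fc receptor for IgM (Fcmr) and Cd180.

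Of 22 other tested genes of the class II pathway, 4 were lower and 0 higher, with a median log2 fold change of -0.31. Of the 4, 3 are cathepsins, lysosomal proteases that cut the invariant chain or antigen and are made by many cell types. Ctss went from 248 ± 13 to 174 ± 19 CPM (SD, n = 2 and 4), Ctsb from 118 ± 9 to 78.3 ± 6.6 CPM, and Ctsl from 7.23 ± 0.08 to 4.47 ± 0.12 CPM. The fourth is H2-Ob, the beta chain of the peptide exchange modulator H2-O, with 38.7 and 45.0 CPM in control 1 and 2 and 29.1 to 33.4 CPM in the cKO libraries. For each of the 4 the cKO libraries lay below both controls, with edgeR adjusted p = 0.00734 (Ctss), 0.00187 (Ctsb), 0.0301 (Ctsl) and 0.0216 (H2-Ob). Over 15 alternatives Ctsb stayed called in 14, Ctss in 13, H2-Ob in 10 and Ctsl in 7. The call of Ctsl ended with DESeq2 (adjusted p = 0.0888), and those of Ctsl and H2-Ob with library totals (edgeR adjusted p = 0.0575 and 0.0563), with reads outside exons in the fit (0.196 and 0.0951) and without either control.

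Ciita, singled out after its values were seen, stood at 6.82 and 7.77 CPM in control 1 and 2 and at 3.61, 6.53, 2.33 and 3.10 CPM in cKO 1 to 4. Like the 3 class II chains it was highest in cKO 2 among the cKO libraries and lowest in cKO 3. Its log2 fold change of -0.89 ± 0.32 (SE) did not pass (edgeR adjusted p = 0.0878). Creb1, which encodes a factor that joins RFX and NF-Y at the promoter, was the most abundant gene of this list and had -0.08 ± 0.08 (SE, edgeR adjusted p = 0.496).

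Other genes of the B cell receptor and its signalling were called lower for 1 of 17 tested genes, Cd72, an inhibitory coreceptor that went from 20.3 ± 2.9 to 14.3 ± 0.5 CPM (SD, edgeR adjusted p = 0.0247), and stayed called in 7 of 15 alternatives. That list had 0 called higher and a median of -0.23. Its most abundant genes, Ptprc (the phosphatase CD45) and Vav1 (an exchange factor), are active in T cells too. Both were above the controls in every cKO library. Vav1 missed the threshold at 0.22 ± 0.07 (SE, edgeR adjusted p = 0.059) and was called higher in 8 of 15 alternatives, DESeq2 among them (adjusted p = 0.0421). Ptprc makes up most of the summed level of the list, which was 4117 CPM in the controls and 4535 CPM in the cKO libraries. Of 17 other surface and identity genes, 2 were lower and 1 higher, with a median of -0.35. Cxcr5, the follicle homing receptor, had -1.05 ± 0.27 (SE, edgeR adjusted p = 0.0305) and Cd55, a complement inhibitor, -0.43 ± 0.09 (SE, edgeR adjusted p = 0.017). Without control 2 they had -0.52 and -0.28 and neither was called (edgeR adjusted p = 0.395 and 0.248). Cxcr5 was also lost on unstranded counts, without cKO 2 and without cKO 3 (edgeR adjusted p = 0.0649, 0.067 and 0.0821). Both were lost with reads outside exons in the fit (0.341 and 0.0765). Cxcr5 stayed called in 10 of 15 alternatives and Cd55 in 13. Cd37, a tetraspanin, had 0.39 ± 0.11 (SE, edgeR adjusted p = 0.0475), a call that held in 8 of 15 alternatives. With reads outside exons in the fit it had 0.06 (edgeR adjusted p = 0.763). Of 15 other transcription factors of B cells, 1 was lower, Foxo1, with -0.35 ± 0.07 (SE, edgeR adjusted p = 0.0105, called in 11 of 15 alternatives), 0 were higher, and the median was -0.08. Foxo1 had 318 ± 12 CPM (SD) in the controls and is a factor of naive T cells as well. The most abundant genes of the surface and factor lists beside these, Ralgps2 (-0.04) and Bach2 (-0.02), were near 0 on the log2 scale, and both are above 0 when scaled by library totals.

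The list of other immunoglobulin constant genes, which also holds the joining chain gene Jchain, had 8 tested genes, 1 lower and 0 higher. Its median log2 fold change was -0.32, and 5 of the 8 were negative. The lower one was Ighd, the heavy chain of IgD, with 10.4 and 13.6 CPM in control 1 and 2 and 6.39, 9.34, 5.50 and 6.88 CPM in cKO 1 to 4 (log2 fold change -0.76 ± 0.21, SE, edgeR adjusted p = 0.0375). As with class II, every cKO library lay below both controls and cKO 2 was nearest to them. Its call held in 9 of 15 alternatives, and ended without either control, cKO 1 or cKO 3, with library totals and with the covariate. Igkc, the kappa light chain, stood at 12.7 and 13.6 CPM in control 1 and 2 and at 9.91, 10.7, 7.83 and 13.2 CPM in cKO 1 to 4, and did not pass (log2 fold change -0.33 ± 0.18, SE, edgeR adjusted p = 0.251). Jchain, Ighg2b and Igha had positive log2 fold changes, of 0.99 ± 0.67, 0.84 ± 0.58 and 0.60 ± 0.49 (SE). They were not called (edgeR adjusted p = 0.338, 0.349 and 0.441). Each was highest in cKO 4, with 31, 41 and 74 reads. Ighm reads outnumbered Igkc reads by 26.8 and 25.3 to 1 in the controls and by 20.2 to 33.9 to 1 in the cKO libraries. Per kb, the control means were 181 CPM for Ighm, 24.7 for Igkc and 6.32 for Ighd.

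Variable segments of immunoglobulin genes, present in RNA of B cells with a joined receptor, gave few reads. The 348 annotated segments summed to 150 and 154 reads in the controls and to 139, 97, 63 and 151 reads in cKO 1 to 4, against 3888 and 3544 Ighm reads in the controls. Per 1000000 gene counts this is 12.6 and 13.8 in the controls and 13.6, 9.29, 6.62 and 13.1 in cKO 1 to 4, and the groups overlap. Scaled by TMM, at 13.1 and 15.0 against 12.9, 8.80, 6.67 and 13.0 CPM, they do not overlap. Reads fell on 68 and 75 different segments in the controls and on 69, 54, 41 and 57 in cKO 1 to 4. cKO 2, the highest cKO library for Cd79a, Cd79b and Ms4a1, was below cKO 1 and cKO 4 for these segments. Variable segments resemble each other, and reads that map to several places are in no gene's count, so these sums are lower limits.

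Markers of other cells that can carry class II were read beside these results. Of 15 monocyte and macrophage markers, 7 were tested and 0 called, and their sum was 59.2 CPM in control 1, 31.9 in control 2 and 28.7 to 34.7 in the cKO libraries. The most abundant of them, Cst3, had -0.18 (edgeR adjusted p = 0.41). In this sum control 1 alone was high, as in Lyz2 (lysozyme), with 11.2 CPM in control 1, 2.33 in control 2 and 1.12 to 2.43 in the cKO libraries. Lyz2 had -1.82 ± 0.53 (SE, edgeR adjusted p = 0.0573) and was called in 6 of 15 alternatives. Csf1r, C1qa, C1qb, Mpeg1, Fcgr1, Adgre1, Tyrobp, Fcer1g, Ly6c2 and Cst3 were also highest in control 1. Itgam, Cd68, Fcgr3 and Cd14 were highest in a cKO library. Csf1r had 38 reads in control 1, 7 in control 2 and 1 to 5 in the cKO libraries. Mpeg1 had 37 reads in control 1, 9 in control 2 and 6 to 13 in the cKO libraries. The class II sum was 96.1 CPM in control 1, 109 CPM in control 2 and 45.9 to 75.3 CPM in the cKO libraries. The share of macrophages in it was not tested. Of 14 dendritic cell markers, 3 were tested and 0 called, with sums of 46.4 and 39.6 CPM in control 1 and 2 and 33.9 to 47.8 CPM in the cKO libraries. Most of that sum was Bst2, which T cells also express (-0.23 ± 0.13, SE, edgeR adjusted p = 0.262), and next came Ccr9 (0.38, edgeR adjusted p = 0.25), which T cells can also express. The other 12 had 0 to 17 reads each in any library. Itgax (CD11c) had 9 and 5 reads in the controls and 10, 6, 0 and 3 in cKO 1 to 4, Siglech had 9 and 2 and then 7, 1, 2 and 3, and Clec9a, Xcr1 and Cd209a had 0 to 2. The 6 plasma cell markers summed to 55.6 and 56.0 CPM in control 1 and 2 and 45.4 to 53.3 CPM in the cKO libraries, with 3 tested and 0 called, and did not overlap. Per 1000000 gene counts, without TMM factors, they were 53.2 and 51.9 in the controls and 48.0 to 53.8 in the cKO libraries, and overlapped. Xbp1 made up most of the sum (46.4 CPM in the controls and 41.1 CPM in the cKO libraries), and next came Prdm1 (7.79 and 5.47 CPM). Jchain had a higher mean in the cKO libraries (1.35 against 0.685 CPM, not called). Sdc1 and Mzb1, not tested, had lower means there, and Tnfrsf17 had at most 1 read.

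**Figure D4:**
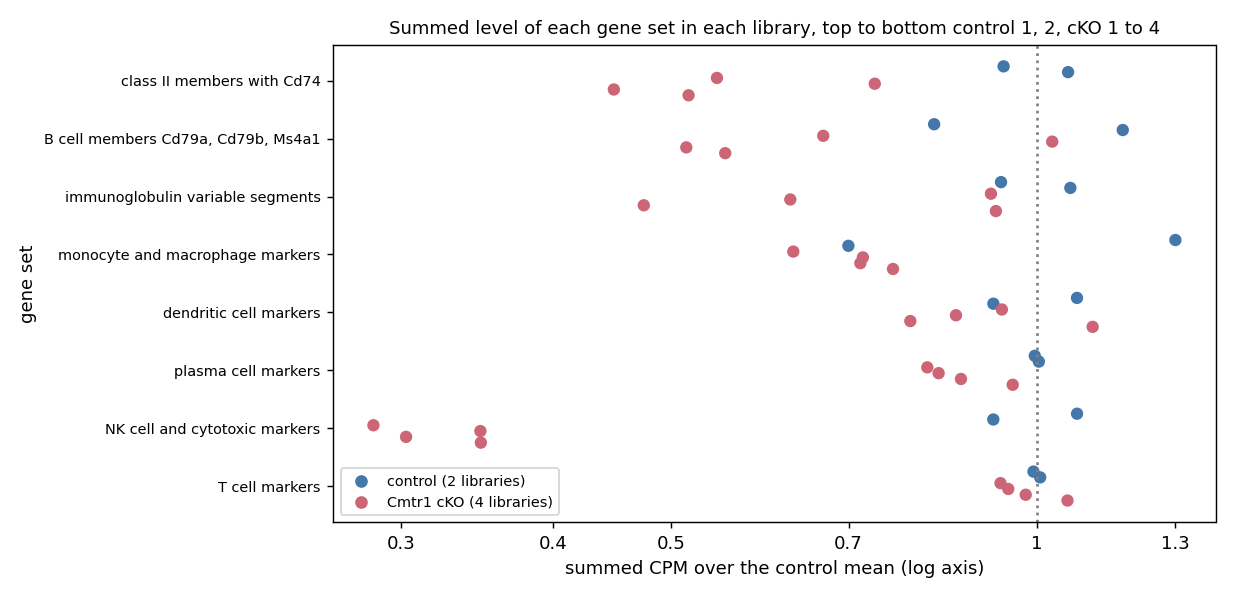
Summed CPM over the mean of the 2 controls (horizontal axis, log scale) for 8 gene sets, 1 point per library, control in blue and cKO in red. The class II, immunoglobulin variable, plasma cell and NK cell sets are below both controls in the 4 cKO libraries, the NK cell set furthest. Most of the NK cell sum is Prf1, and most of the plasma cell sum is Xbp1. The monocyte and macrophage set is high in control 1 alone, and the T cell markers stay near 1.

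Markers of further cell types were read in the same way. Of 10 NK cell and cytotoxic markers, 5 were tested and 3 were lower, with a summed level of 61.2 ± 6.8 CPM (SD) in the controls and 19.6 ± 2.0 CPM in the cKO libraries. These were Prf1 (perforin, -1.95 ± 0.15, SE), Klrd1 (CD94, -1.91 ± 0.22) and Nkg7 (-1.25 ± 0.37), with edgeR adjusted p = 4.6e-05, 0.000532 and 0.0486. Prf1 and Klrd1 were called in all 15 alternatives and Nkg7 in 5. Eomes had -0.77 and Gzma -0.53, and neither was called (edgeR adjusted p = 0.0791 and 0.463). Prf1 made up most of the sum, with a mean of 41.9 CPM in the controls and 10.9 CPM in the cKO libraries. Of the markers too low to test, Ncr1, Klrb1c, Klre1 and Gzmb had 0 to 8 reads a library and higher means in the cKO libraries. Klrk1, with 1 to 11 reads, had a lower mean there. Stromal and endothelial markers were near 0 apart from Pecam1, which naive T cells express. Cdh5 had 2 to 9 reads, and 3 of the 12 had no read in any library. Red cell markers summed to 0.741 to 3.88 CPM, with 1 tested and 0 called. That was Hbb-bs (-1.002, edgeR adjusted p = 0.258), and Hba-a1 had 1 to 6 reads. Of the 20 T cell markers, Ccr7 (-0.36 ± 0.10, SE) and Cd247 (-0.29 ± 0.07) were lower and Cd6 (0.32 ± 0.08) higher, with edgeR adjusted p = 0.0433, 0.0276 and 0.0271. They stayed called in 7, 8 and 11 of 15 alternatives. Tcf7, a factor of naive T cells, had -0.12 (edgeR adjusted p = 0.491). The part of these cells, of the reads outside exons and of RNA quality in the fall of the class II genes was not tested. In the fit with each library's share of such reads as a covariate, H2-Aa, H2-Ab1, H2-Eb1 and Ighm were called. Cd74 then had -1.08 and did not pass (edgeR adjusted p = 0.12).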

How the data were processed

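The authors deposited raw read counts for each gene, in the form STAR writes, with 1 unstranded and 2 stranded columns. The submitters' processing notes list STAR 2.5.2b and edgeR, with mm10 and GRCm38 as builds. Which annotation was counted is not given here. Libraries were made with a TruSeq kit after Ribozero Gold depletion, per the labels. Identifiers without versions were matched to GENCODE vM21 (46488 of 46983 genes, 98.9%). The rows that name no gene (52.1% to 62.0% of reads) were left out.

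Counts of the sense column were filtered with filterByExpr, scaled by TMM and tested with genotype alone in edgeR 4.0.16 (R 4.3.3, glmQLFit robust, glmQLFTest) over 12748 genes, with Benjamini-Hochberg adjustment over all of them. Calls are adjusted p-values under 0.05. SE is the absolute log2 fold change over the root of F. CPM per kb uses merged exon length. The code was checked on simulated counts. Wilson intervals (95%) cover counting error only. Alternatives were DESeq2 1.42.0, 2 other scalings, no filter, unstranded counts, fewer gene classes, a covariate, a replicate block and each library left out.

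The members and lists were chosen with earlier results of these data known. Named are all members, up to 8 called genes of each list and its 2 most abundant, the 10 genes most like the members, and promoters of members with over 10 reads in every library off chromosome 18. Ciita, the genes near the profile without Ighm and the markers named beyond this rule were added after their values were seen. A further gene that the rule names is not reported here. Of the exon bases of Cd74, 0.715% overlap Mir5107 on its strand; no other member shares exon bases.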

Additional observations from a re-analysis of the deposited data

Results flagged for a closer look

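The summed level of the 9 members was 383.5 CPM in cKO 2, against 325 to 334 CPM in the other 3 cKO libraries, a gap large enough to set it apart from them. Control 1 and 2 had 456 and 482 CPM. Chance alone would mark about 1 group in 20 in this way.

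Reads on the strand opposite to Cd79a, which no comparison above uses, outnumbered those on its own strand, with 422 of all 695 reads (60.7%). For the other members the opposite strand held at most 3.57% (Cd74). These reads came to 5.51 and 4.27 CPM in control 1 and 2 and to 6.76, 8.80, 7.62 and 6.28 CPM in cKO 1 to 4, with a cKO mean of 7.363 CPM. Every cKO library was above both controls, as holds on their own strand for 18.2% of all genes tested. In cKO 3 the opposite strand held 1707028 reads over all genes, against 490432 to 551462 in the other libraries. No gene on the opposite strand overlaps the exons of Cd79a in GENCODE vM21, and its nearest neighbour, Arhgef1, lies 714 bases downstream on the same strand. On unstranded counts the log2 fold change of Cd79a was 0.20 in place of -0.28. The source of these reads was not tested.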

How the results depend on the processing

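The number of genes called (1457) was 2272 without a filter, 666 with reads outside exons as a covariate, 4830 with the replicate block (libraries 1 and 2 of both groups) and 4681 in those libraries with no replicate block, and 193 to 3880 with 1 library left out. The number of members called (5) was 3 with library totals and 0 to 6 with 1 library left out. With the replicate block it was 5. Only 2 numbers are shared and the labels name no pairs, so the numbers are not taken as pairs. Deviations from the group mean correlated at 0.125 and -0.131 between same-numbered libraries. That cannot decide pairing, as 2 controls always deviate from their mean by equal and opposite amounts. DESeq2 called 1400 genes and 5 members.

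Over the 15 alternatives the log2 fold change stayed negative for H2-Aa (-0.98 to -0.74), H2-Ab1 (-1.17 to -0.76), H2-Eb1 (-1.13 to -0.66), Cd74 (-1.08 to -0.52), Ighm (-0.37 to -0.22), Cd79b (-1.15 to -0.20) and Ms4a1 (-1.21 to -0.30). H2-Aa, H2-Ab1 and H2-Eb1 were called in 13 of 15, Ighm in 11 and Cd74 in 9, Cd79b and Ms4a1 in 1 each, and Cd79a and Ebf1 in 0. Among genes that were not called, some changed sign, for causes not tested. On unstranded counts Cd79a had 0.20. With library totals Creb1 had 0.046, Ralgps2 0.095, Bach2 0.11 and Tcf7 0.0023. On protein-coding, immunoglobulin and TCR genes alone Bach2 had 0.0094. With the covariate Cst3 had 0.067 and Tcf7 0.13. In libraries 1 and 2 alone Ebf1 had 0.15 with the replicate block and 0.16 without it, and Ralgps2 0.024 and 0.021. With 1 library left out the values ran from -0.58 to 0.11 for Cd79a, -0.72 to 0.15 for Ebf1, -0.14 to 0.097 for Ralgps2, -0.032 to 0.013 for Bach2 and -1.67 to 0.22 for Hbb-bs, each above 0 without control 2, Ralgps2 also without cKO 4 (0.00056). They ran from -0.33 to 0.0062 for Cst3, above 0 without control 1. Of the 16 called genes named from the other lists, 4 stayed called without control 1, 3 without control 2, 6 with the covariate, 8 with library totals and 14 with DESeq2. Depth limits genes with few reads, such as Ebf1 with 12 to 39 a library.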
